A study of Mus musculus with 6 samples.

Results

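The genes *5330430B06Rik*, *Zfp941*, *9330154F10Rik* and *Sult1a1* were chosen for how far their mean signal in the cortex of STEE-fed SAMP8 mice lay from that of SAMP8 control mice, while lying outside a list of activity-induced genes. They are not the top 4 outside that list: without it their probe sets ranked 1, 16, 31 and 37 by size. These 4 genes, of 22527 gene symbols on the array, were selected on that difference between group means, and they carried 7 of the 45077 probe sets. The short probes of a set are read together as one value for a transcript, and every probe set whose gene symbol entry names one of the 4 genes is described. Because the STEE comparison chose the genes, its values are a description and were not tested.

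Total RNA of the cerebral cortex of 6 male mice was hybridised to Affymetrix array strips, with 2 mice in each of 3 groups. The labelled age of 16 weeks is that before acclimatization and dosing, so the mice were older when tissue was taken. SAMR1 + Water is the senescence-resistant strain given water, SAMP8 + Water is the senescence-accelerated strain given the same volume of water (SAMP8 control), and SAMP8 + STEE is the accelerated strain given sugarcane top ethanolic extract by mouth at 20 mg/kg. Dosing ran for 30 days and continued through 8 days of behavioral tests in all groups. SAMP8 and SAMR1 are separate inbred lines, so a difference between them is a difference of whole genomes, and in bulk cortex fewer cells of a type cannot be told apart from less RNA per cell. The values used are the authors' mean log2 signal of each group, rounded to 2 decimals, and no value of a single mouse was used. The spread between mice is therefore not known here, and no statement below carries an error or a p-value. Rounding alone can move a difference between groups by up to 0.01.

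*Sult1a1* encodes a cytosolic sulfotransferase that prefers phenols. Enzymes of this family take a sulfate group from the donor PAPS (3′-phosphoadenosine 5′-phosphosulfate) and place it on small molecules such as phenols, steroids and catecholamines, which makes them more water soluble, and plant polyphenols are among the known substrates. *Zfp941* is listed as a zinc finger protein. Zinc finger proteins form one of the largest gene families of the mouse, and many of them bind DNA and repress transcription through co-repressors such as Trim28. *5330430B06Rik* and *9330154F10Rik* are named only after RIKEN cDNA clones, and no function is assumed for either.

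*Zfp941* and *Sult1a1* are the 2 of the 4 genes with an entry in the RefSeq gene table of GRCm38.p6, both protein coding and both on chromosome 7. Both were higher with STEE, so the 250 bases before the start that RefSeq lists for each are shown 5′ to 3′ on the strand of the gene. Capitals mark matches, on either strand, to 6 short motifs: GCGTG (the core of the xenobiotic response element bound by the aryl hydrocarbon receptor), TGACNNNGC (antioxidant response element), CCAAT (bound by NF-Y), GGGCGG (GC box), TGACGTCA (cAMP response element) and CACGTG (E-box). The windows are chr7:140822179-140822428, minus strand, for *Zfp941* and chr7:126676419-126676668, minus strand, for *Sult1a1*.
Zfp941: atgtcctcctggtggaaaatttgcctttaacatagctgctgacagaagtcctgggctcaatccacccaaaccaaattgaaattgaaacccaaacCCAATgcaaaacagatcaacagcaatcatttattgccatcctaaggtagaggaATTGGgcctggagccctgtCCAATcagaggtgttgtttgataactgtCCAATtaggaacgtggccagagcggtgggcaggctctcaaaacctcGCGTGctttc
Sult1a1: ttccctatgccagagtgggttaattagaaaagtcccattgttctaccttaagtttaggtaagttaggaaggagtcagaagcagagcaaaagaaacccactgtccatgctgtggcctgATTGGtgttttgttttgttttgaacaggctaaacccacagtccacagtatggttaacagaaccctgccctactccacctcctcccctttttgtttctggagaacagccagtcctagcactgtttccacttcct

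The *Zfp941* window held 4 CCAAT matches, at 156, 103 (on the opposite strand), 84 and 56 bases before the start, and 1 GCGTG match at 10 bases before it. The *Sult1a1* window held 1 CCAAT match, on the opposite strand, at 133 bases before the start. Of 32851 RefSeq windows of the same length, 33.8% held CCAAT and 28.2% held GCGTG, so such matches are common. The other motifs had no match in either window, and were found in 10.2% (TGACNNNGC), 32.7% (GGGCGG), 1.55% (TGACGTCA) and 6.02% (CACGTG) of all windows. A match describes the letters only.

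No probe set on the array had a larger STEE difference (STEE-fed SAMP8 minus SAMP8 control) than *5330430B06Rik*. At probe set 1433047_PM_at SAMR1 had a mean log2 signal of 4.72, SAMP8 control one of 5.83 and the STEE-fed mice one of 4.18. SAMP8 control was thus the highest group and STEE-fed SAMP8 the lowest. STEE-fed SAMP8 lay below SAMP8 control by a log2 difference of -1.65, or 3.14-fold, which ranked 1 of 45077 by size. The next largest difference, of the activity-induced transcription factor *Egr2*, was -1.36.

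The other probe set of *5330430B06Rik* did not show a difference of that size. At 1454451_PM_at SAMR1 read 3.12, SAMP8 control 3.18 and the STEE-fed mice 3.09. The order of the groups was the same, but STEE-fed SAMP8 was lower by a log2 difference of only -0.09, a size that 35.4% of all probe sets reached or passed. Its signal averaged 3.13 over the groups, below the array median of 4.15, and 23.1% of probe sets were dimmer. Both probe sets carry the same transcript identifier of the array design.

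*Zfp941* had the largest difference of the 3 genes that were higher with STEE. At 1458163_PM_at SAMR1 had a mean log2 signal of 5.59, SAMP8 control one of 5.35 and the STEE-fed mice one of 6.01. STEE-fed SAMP8 was the highest group, 0.66 above SAMP8 control on the log2 scale or 1.58-fold, place 6 among all rises and place 25 by size in either direction. Its other probe set, 1439850_PM_at, which belongs to a separate transcript of the array design, read 4.60, 4.51 and 4.67 in the same order of groups. The groups stood in the same order there, with a STEE difference of 0.16 that 11.7% of all probe sets reached or passed.

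At 1433325_PM_at of *9330154F10Rik*, SAMR1 read 5.65, SAMP8 control 5.22 and the STEE-fed mice 5.79. SAMP8 control was the low group here, and STEE-fed SAMP8 and SAMR1 lay close together above it. The STEE difference was 0.57 on the log2 scale, or 1.49-fold, place 12 among rises and 40 by size in either direction. At 1433324_PM_at, a probe set with the same array design transcript, the means were 3.66, 3.71 and 3.79, a difference of 0.08 that 40.8% of probe sets reached or passed. There SAMP8 control was not the low group.

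*Sult1a1*, the one gene of the 4 with a single probe set (1427345_PM_a_at), had mean log2 signals of 5.05 (SAMR1), 5.04 (SAMP8 control) and 5.60 (STEE-fed). Both water groups had nearly the same mean and STEE-fed SAMP8 stood above them, by 0.56 on the log2 scale against SAMP8 control, or 1.47-fold. It was place 14 among rises and 49 by size in either direction, and no other probe set of the gene was available to set beside it.

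**Figure D1:**
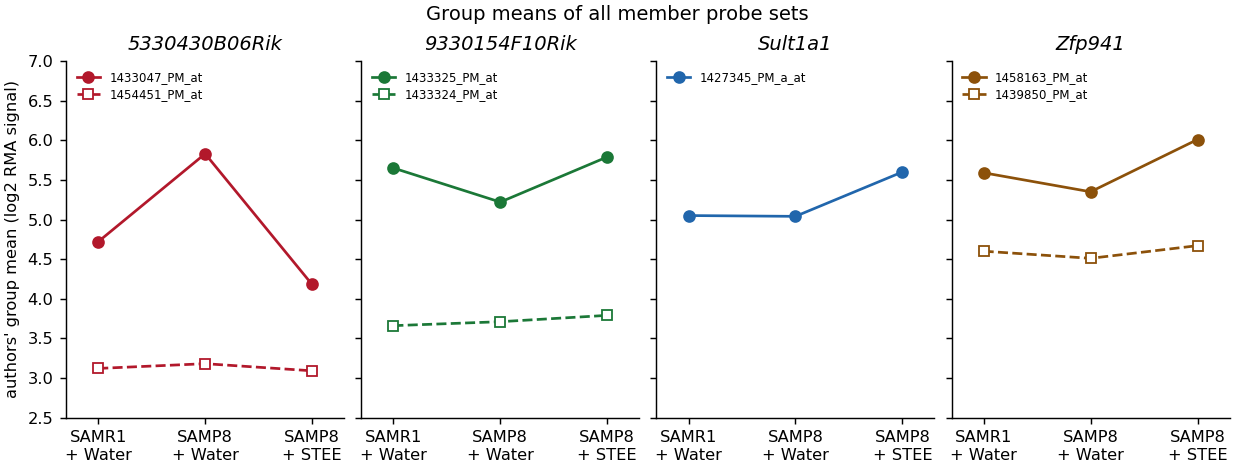
Each panel shows a gene and each line a probe set, with the authors' group mean on the vertical axis (log2 RMA signal) for SAMR1 + Water, SAMP8 + Water and SAMP8 + STEE; filled circles mark the probe set with the larger STEE difference, open squares the other one, and no error can be drawn because no value per mouse was used. The filled lines of *Zfp941*, *9330154F10Rik* and *Sult1a1* end 0.66, 0.57 and 0.56 above SAMP8 + Water, that of *5330430B06Rik* ends below it (log2 difference -1.65), and the open lines are nearly flat.

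Differences of this size were rare between these groups. A log2 difference of at least 0.5 in either direction was found for 74 of 45077 probe sets, or 0.164%, with 0.0599% higher and 0.104% lower with STEE. Of the 7 probe sets of the 4 genes, 4 were past it, 3 of them higher and 1 lower, which the choice of the genes fixed. The median absolute STEE difference was 0.06 over all probe sets and 0.56 over the 7.

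The genes sit in mixed company near the top of the list. As many as 51 probe sets had a difference at least as large as the 0.56 of *Sult1a1*, 15 higher and 36 lower with STEE. Besides the 4 probe sets of these genes, 12 belonged to the activity-induced list, 6 had no gene symbol and 29 belonged to other genes, 4 of these to *Ttr* (transthyretin, made in quantity by the choroid plexus). The 29 also held *Zic1*, *Eomes*, *Cdhr1*, *Calb2*, *S100a5*, *Th* and *Sp8*, all lower with STEE. These are on the olfactory bulb list described below, which was written after the values were seen. Just inside the smallest of the 4 differences, at the same size of 0.56, stood *Ddit4l*, higher with STEE, and *Lgr6*, lower. Just outside it, at 0.55, were *B3galt2*, *Gpr22* and *B230208B08Rik*, all higher with STEE, and *Kif1b*, lower.

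**Figure D2:**
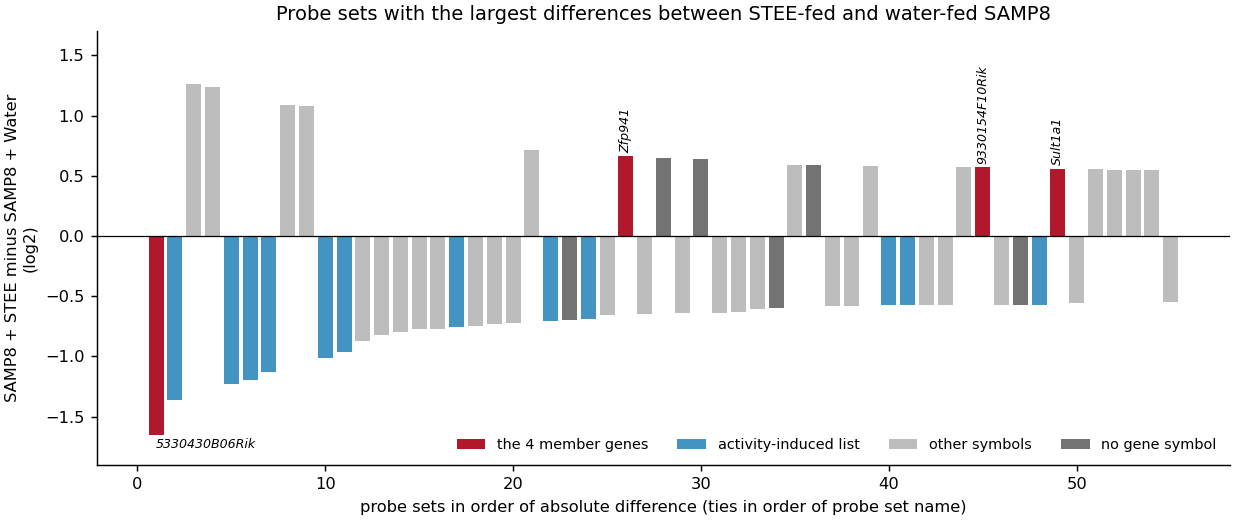
Bars give SAMP8 + STEE minus SAMP8 + Water (log2) for the 55 probe sets with the largest absolute differences, in order of size from left to right, coloured by class. *5330430B06Rik* is the first bar at -1.65, next to bars of the activity-induced list that all point down, while *Zfp941*, *9330154F10Rik* and *Sult1a1* are among the fewer bars that point up.

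The activity-induced list, genes that neurons switch on within minutes to hours of firing, was lower with STEE for 39 of its 47 genes, with a median log2 difference of -0.19. Read at the probe set of highest mean signal, 10 of the 47 were lower by at least 0.5, among them *Fos* (-1.20) and *Arc* (-1.13), and 0 were higher by as much. The profile of *5330430B06Rik* over the 3 group means lay nearest to genes of this list. By Euclidean distance over the strain difference and the STEE difference, its 3 nearest probe sets with a single symbol were *Arc* (0.65), *Egr2* (0.73) and *Klf10* (0.73). *Arc*, for example, read 7.64, 8.36 and 7.23 in the same order of groups. These distances are wide, and 0 probe sets lay within 0.1 of *5330430B06Rik*. The STEE difference that chose the clone enters these distances. The next largest falls were those of activity-induced genes, so such neighbours were nearly fixed in advance. The clone is called outside the activity response only because a list of named genes does not hold it, and whether it responds to activity was not tested.

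The other 3 genes had closer company. *Tnik*, a kinase of the postsynaptic compartment, was nearest to *9330154F10Rik*, at a distance of 0.05 and with means of 7.97, 7.49 and 8.06. *Gpr22*, an orphan receptor, was nearest to *Sult1a1* at 0.041, followed by *Ldb2* at 0.051 and *Fam107a* at 0.086. The match of *Gpr22* rested on its dimmer probe set, and its brighter one had a STEE difference of only 0.02. *B3galt2*, a galactosyltransferase, was nearest to *Zfp941* at 0.13. Likeness over 3 group means is a weak description, since any probe set with similar differences will match.

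In SAMP8 control against SAMR1, which shares the SAMP8 control mice with the STEE comparison, the 4 genes did not behave alike. *5330430B06Rik* at 1433047_PM_at was higher in SAMP8 control by 1.11 on the log2 scale, or 2.16-fold, and 0.226% of all probe sets differed by as much or more. *9330154F10Rik* at 1433325_PM_at was lower in SAMP8 control by a log2 difference of -0.43, reached or passed by 2.01% of probe sets. *Zfp941* at 1458163_PM_at was lower by -0.24, a size that 9.32% reached, and *Sult1a1* differed by -0.01, within rounding. A difference of at least 0.5 was found for 1 of the 7 probe sets, against 1.32% of all probe sets in this comparison. The second probe sets of *5330430B06Rik*, *9330154F10Rik* and *Zfp941* differed by 0.06, 0.05 and -0.09 between the strains.

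STEE-fed SAMP8 against SAMR1 leaves out the SAMP8 control mice that chose the genes, but still uses the STEE-fed mice that did. *Sult1a1* was higher in STEE-fed SAMP8 than in SAMR1 by 0.55 on the log2 scale, and 1.22% of probe sets differed by as much. *5330430B06Rik* was lower by a log2 difference of -0.54 (1.27% of probe sets), *Zfp941* was higher by 0.42 (2.51%) and *9330154F10Rik* was higher by 0.14 (27.6%). Thus *Sult1a1* stood nearly as far above SAMR1 as above SAMP8 control, *9330154F10Rik* lay near the SAMR1 mean, and *5330430B06Rik* and *Zfp941* lay beyond it on the side of their STEE difference. Of the 7 probe sets, 2 were past 0.5 here, against 1.56% of all probe sets. At the second probe sets STEE-fed SAMP8 differed from SAMR1 by -0.03 for *5330430B06Rik*, 0.13 for *9330154F10Rik* and 0.07 for *Zfp941*.

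**Figure D3:**
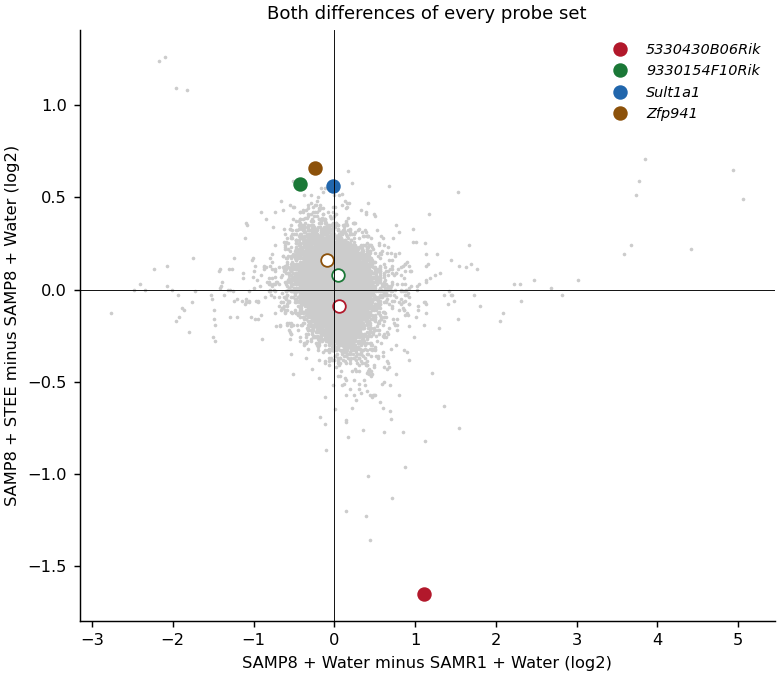
Each grey point is a probe set, with SAMP8 + Water minus SAMR1 + Water on the horizontal axis and SAMP8 + STEE minus SAMP8 + Water on the vertical axis (both log2); coloured circles are the probe sets of the 4 genes, filled for the larger STEE difference and open for the other. The axes share the SAMP8 + Water mean, so a slope down to the right can arise from that sharing; *5330430B06Rik* lies alone at 1.11 and -1.65, *Sult1a1* lies on the vertical line, and the open circles lie within the grey cloud.

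For 3 of the 4 genes the difference rested on 1 of 2 probe sets. The gap between the STEE differences of the 2 probe sets was 1.56 for *5330430B06Rik*, 0.50 for *Zfp941* and 0.49 for *9330154F10Rik*. Over 5284 genes with exactly 2 probe sets the median gap was 0.08, and 0.0189%, 0.114% and 0.151% of them had a gap at least as wide, so that *5330430B06Rik* had the widest of all. Genes chosen for a large difference at one probe set are bound to have wide gaps. Within the 14 such genes whose larger difference was at least 0.5, the smaller one had the same sign in 13 and was itself at least 0.5 in 3, which were *Egr2*, *Eomes* and *Zic1*. It was no more than 0.16 in the direction of the larger one in 7 of the 14, and *5330430B06Rik*, *Zfp941* and *9330154F10Rik* were among these. The cut of 0.16 is the smaller difference of *Zfp941* itself, so it takes in these 3 genes by construction.

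**Figure D4:**
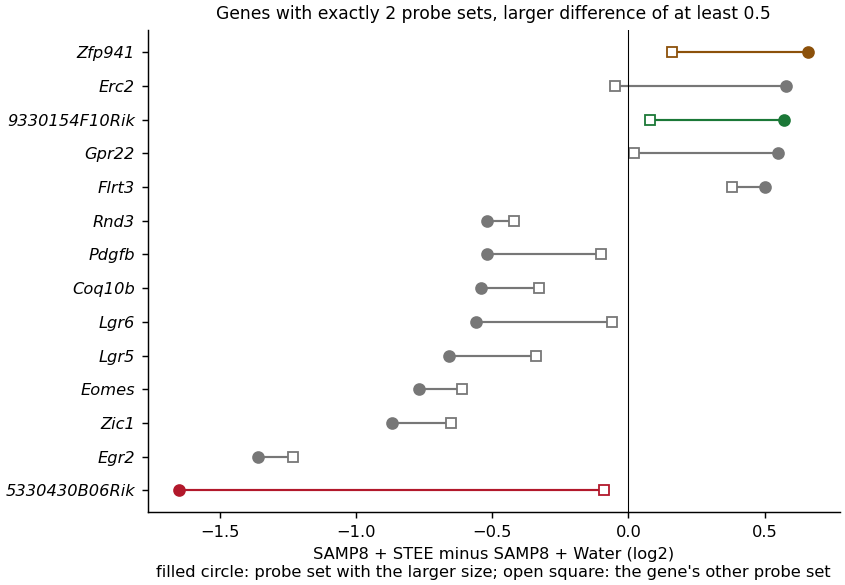
Each row is a gene with exactly 2 probe sets and a STEE difference of at least 0.5 at one of them, with SAMP8 + STEE minus SAMP8 + Water (log2) on the horizontal axis for both probe sets. The widest line is that of *5330430B06Rik*, from -1.65 to -0.09, while the ends of *Egr2*, *Eomes* and *Zic1* lie close together.

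Among the sulfotransferases on the array, *Sult1a1* had the largest STEE difference, which its choice for such a difference had nearly fixed in advance. Of 13 listed sulfotransferases 12 were on the array, and at the probe set of highest mean signal 7 were higher with STEE, 3 lower and the others equal to 2 decimals, with a median difference of 0.015. Of the 12, 9 had a signal below the array median of 4.15, where a difference is hard to see, and *Sult1a1* was the one past 0.5. The next highest was *Sult3a1* with 0.12, and *Sult1e1*, the estrogen sulfotransferase, was the lowest with -0.12. *Sult4a1*, the family member known for its expression in neurons, read 9.02, 9.16 and 9.11 in SAMR1, SAMP8 control and STEE-fed mice. *Sult1d1*, which in rodents sulfates catecholamines, read 2.52, 2.56 and 2.54.

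Genes that make or move the sulfate donor or break down its spent form, listed together as PAPS supply, were read alongside. Of the 6 measured genes of PAPS supply, 5 had positive STEE differences larger than rounding and *Impad1* differed by 0.01, within it. The median was 0.065 and the highest 0.22, where the median absolute STEE difference over all probe sets was 0.06. Signs were split nearly evenly over all probe sets (21301 higher and 21666 lower). In SAMP8 control against SAMR1, which shares the SAMP8 control mice, 5 of the 6 genes were lower and 0 higher, with a median of -0.05. The largest STEE differences were those of *Slc35b3*, a PAPS transporter of the Golgi, with 0.22, and *Bpnt1*, which breaks down the spent donor, with 0.17. *Papss1*, a PAPS synthase, read 8.01, 7.99 and 8.04, a STEE difference of 0.05, and *Papss2*, also a synthase, had one of 0.08. None of the 6 was past 0.5, and the lowest probe set of *Impad1* had a difference of -0.03. Of 15 sulfatases and related genes, which remove sulfate groups, 8 were higher and 7 lower, with a median of 0.01. *Sumf1*, which activates sulfatases, had the largest difference, 0.33.

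Other enzymes and sensors of foreign compounds gave small differences. Among 13 probe sets for other conjugation enzymes, STEE differences ran from -0.22 to 0.15, with 8 higher and 4 lower. *Ugt8a*, an enzyme of myelin lipid synthesis, had the lowest of these differences (-0.22). Among 15 xenobiotic sensors and their targets the differences ran from -0.10 to 0.15, and *Cyp1a1*, the classical target of the aryl hydrocarbon receptor, read 2.96, 2.87 and 2.84 in the same order of groups. None of these genes was past 0.5 in either direction.

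**Figure D5:**
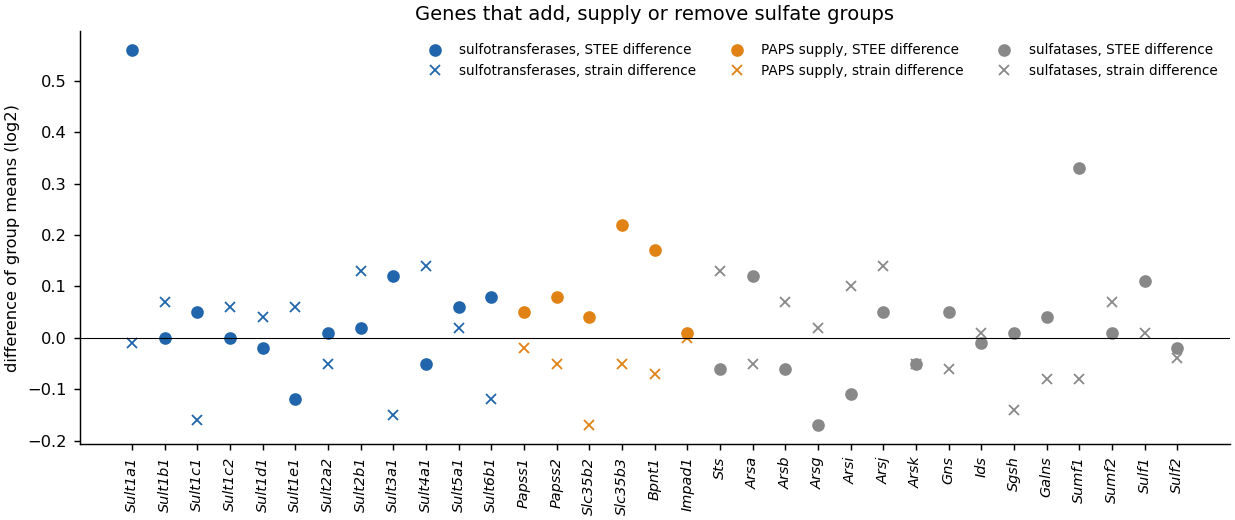
Circles give SAMP8 + STEE minus SAMP8 + Water and crosses SAMP8 + Water minus SAMR1 + Water (both log2) for sulfotransferases, genes of PAPS supply and sulfatases, each at its probe set of highest mean signal. The circle of *Sult1a1* at 0.56 stands above all others, and the next are *Sumf1* at 0.33 and *Slc35b3* at 0.22.

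Within its own family *Zfp941* was at the edge, which its choice for a large STEE difference had nearly fixed in advance. Over 323 genes whose symbol is Zfp and a number, the median STEE difference was 0.01, and the percentiles 5 and 95 over genes were -0.17 and 0.23. *Zfp941* was the highest with 0.66 and the one gene past 0.5, followed by *Zfp810* with 0.46, and the lowest was *Zfp354b* with -0.28. The other probe set of *Zfp941*, with a difference of 0.16, lay between the percentiles 5 and 95. The co-repressors through which many zinc finger proteins act were nearly level: of 12, 7 were higher and 4 lower with STEE, between -0.13 and 0.16. *Trim28* read 8.43, 8.37 and 8.35 in the same order of groups.

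The RIKEN clones held both ends of their own class, which their choice for large STEE differences had nearly fixed in advance. Among 3049 genes with a RIKEN clone symbol the median STEE difference was -0.01, 2 genes were higher and 2 lower by at least 0.5. *9330154F10Rik* was the highest and *5330430B06Rik* the lowest, ahead of *B230208B08Rik* (0.55) and *5430420F09Rik* (-0.51). The other probe sets of *9330154F10Rik* and *5330430B06Rik* differed by only 0.08 and -0.09.

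The chromosomal neighbours of *Sult1a1* and *Zfp941* were read for the same comparison. For *Sult1a1*, the 3 nearest genes on each side with a probe set had STEE differences from -0.09 to 0.17, and *Nupr1*, a stress-induced nuclear protein gene, was the highest of them. For *Zfp941* the same 6 places gave -0.11 to 0.11, with *Syce1* (-0.04) and *Cyp2e1* (0.04) on one side and the upper end from *Gm6314*, on a probe set shared with *Abracl*. Of these neighbours 0 were past 0.5, which says little where 0.164% of all probe sets were, and 4 of the 6 around *Zfp941* were below the median signal. The neighbours of the RIKEN clones were not analysed here.

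Genes typical of tissue next to the cortex also differed between the groups, and their part in the differences of the 4 genes was not tested. Excitatory cortical markers were present in all groups, with median log2 signals over 11 genes of 7.62 (SAMR1), 7.56 (SAMP8 control) and 7.49 (STEE-fed). Gene by gene, 8 were higher and 3 lower with STEE, with a median difference of 0.09. Of 11 genes typical of the olfactory bulb, a list written after the values were seen, 10 were lower with STEE and 7 of them by at least 0.5, with a median difference of -0.58. In SAMP8 control against SAMR1, 9 of these 11 were higher, with a median difference of 0.28 and 4 past 0.5. The list, like *5330430B06Rik*, was thus mostly highest in SAMP8 control. Both the list and the gene were chosen with these values known, so the counts and the likeness are a description and carry no weight. *Cdhr1*, a marker of the output neurons of the olfactory bulb, read 4.82, 5.67 and 4.90. The choroid plexus list of 9 genes had a median STEE difference of 0.01, with *Ttr* alone past 0.5. Endothelial (13 genes), pericyte (7), astrocyte (8), microglial (8), oligodendrocyte (9), striatal (9) and hippocampal (8) lists had median STEE differences between -0.05 and 0.07, with 0 genes past 0.5. The thalamic list of 8 had a median of -0.045, with 2 genes lower by at least 0.5 (*Zic1* and *Calb2*, also on the olfactory bulb list). Between the strains, 9 of 9 striatal genes were higher in SAMP8 control (median 0.61, 5 past 0.5), 8 of 9 oligodendrocyte genes were lower (median -0.31, 1 past 0.5) and 7 of 8 thalamic genes were lower (median -0.405, 4 past 0.5). Also lower were 8 of 9 choroid plexus genes (median -0.18, *Ttr* alone past 0.5 with -1.96) and 7 of 8 hippocampal genes (median -0.115, 1 past 0.5). Of blood genes 5 probe sets were read, from -0.05 to 0.12, and 4 male genes lay between -0.05 and 0.10 and *Xist* at -0.08, in mice labelled male.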

How the data were processed

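Cortical RNA was amplified, biotinylated and hybridised to Affymetrix array strips, 1 array per mouse. The authors summarised probe intensities by RMA in Expression Console and averaged the log2 values of each group (bi-weight average) in Transcriptome Analysis Console, and they deposited these log2 group means to 2 decimals for 45077 probe sets. The genome build is not given in the sources used here. The deposited tables also hold the authors' fold changes, ANOVA p-values and FDR p-values for each comparison, which were not used.

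Differences of group means were taken on the log2 scale with Python 3.11.15, numpy 2.4.6 and pandas 2.3.3 and plotted with matplotlib 3.10.9. No test was run, since no value per mouse was used and the number of arrays limits the precision. The SAMP8 control means of both tables were identical. Ranks went by absolute difference, and 0.5 was the size used for counts. Genes named are all probe sets of the 4 genes, the 10 largest STEE differences and the 3 nearest profiles. The 3 chromosome neighbours on each side were named too, with examples from 20 gene lists and an olfactory bulb list added after the values were seen. Genes of lists and symbol families and chromosome neighbours were read at their probe set of highest mean signal. The largest differences, the nearest profiles and the genes at the edge of the selection could come from any probe set of a gene. Genes at the edge of the selection, family extremes and other genes with unequal probe sets were named after their values were seen. Genes and lists were chosen with earlier results of these data known. The calculation was tested on simulated data. Sequences are RefSeq's, GRCm38.p6.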

Additional observations from a re-analysis of the deposited data

How the results depend on the processing

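Of 52 alternative values 41 stayed within rounding or within 1.5 times, 11 moved and 0 changed sign. Centring each group on its median, reading the SAMP8 control mean from the other table, taking the probe set of highest mean signal, and restricting ranks and counts to single-symbol or brighter probe sets moved none. The other table could not move a value, since its SAMP8 control means were identical. Each leading probe set was already its gene's brightest, so that setting repeated the main value. Centring could shift little, with group medians of 4.16, 4.15 and 4.15. Ranks and counts have no sign to change, so these totals say little about robustness. Averaging the 2 probe sets of a gene shrank its values: the STEE difference became -0.87 for *5330430B06Rik*, 0.41 for *Zfp941* and 0.33 for *9330154F10Rik*, and the strain difference became 0.59, -0.16 and -0.19. Without the activity-induced list *Zfp941* ranked 16 by size. At a log2 difference of at least 0.3, 569 probe sets were past it with STEE and 2407 between the strains, and at 1 the numbers were 10 and 123. Leaving out a mouse could not be done on group means. No paired analysis was made, since the groups were separate mice and no pairing between them is described. The brightness of the second probe sets of *5330430B06Rik* and *9330154F10Rik*, below the array median, limits what they can show.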
